A study of Mus musculus with 6 samples.

Results

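Motile cilium genes are the genes that build and run the beating cilia of multiciliated airway cells. The members are 36 mouse genes given by name: regulators of multiciliated cells, axonemal dyneins, radial spoke genes and other axoneme genes. Of the 20494 gene rows in the table, 33 carried the symbol of a member and 3 carried an older symbol, Dnaic1 for Dnai1, Dnaic2 for Dnai2 and Dnahc3 for Dnah3, so all 36 were found. RNA from whole lungs of untreated male C57BL/6 mice, 4 months old, was sequenced in 6 libraries. The knockout group was 3 libraries from mice lacking lincRNA-Cox2, a long noncoding RNA transcribed beside the cyclooxygenase gene Ptgs2, and the other 3 libraries came from wild type mice. How the lincRNA-Cox2 allele was made is not given in the sources used here. In the authors' deposited table the targeted transcript averaged 311 normalized counts in wild type and 0.666 in knockout.

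A motile cilium is a ring of microtubule doublets around a central pair. Dynein arms on the doublets slide them past each other, and the nexin link, the radial spokes and the central pair turn that sliding into a regulated beat. In the airways these cilia move mucus out of the lung, and defects of many of these genes cause primary ciliary dyskinesia. Foxj1 and Rfx3 are transcription factors that switch on the axoneme genes, while Mcidas and Ccno act earlier, when a progenitor commits to the fate and multiplies its centrioles.

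Normalized counts are reads per gene after the authors scaled the libraries to each other. Over all rows with an adjusted p the group means summed to 37099270 in wild type and 36818964 in knockout, and these scaled sums do not give the depth of a library. The authors' deposited table holds the mean of each genotype and no values of single libraries. An adjusted p existed for 16902 rows, including all 36 members, and a gene was called where it was under 0.05. P-values set the difference of the means against the spread between the libraries of a genotype. That spread may be technical or between animals, and the labels give no batch and no pairing. In RNA from whole lung, fewer ciliated cells and less RNA per ciliated cell cannot be told apart.

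The tissue held multiciliated cells by the markers chosen for them. Foxj1, Ccdc39, Dnah5, Tppp3, Rsph1 and Sntn all had wild type means of at least 1004 normalized counts in the authors' deposited table. The germ cell protamine gene Prm1, a marker of the other cells that build motile axonemes, averaged 1.67 in wild type and 2.0 in knockout there. Of the other germ cell markers found, Dazl averaged 6.40 and 4.98 and Ddx4 18.5 and 11.9, while Sycp3 averaged 467 and 494 and Odf2, which is also a centriole gene, 2490 and 2494 in the authors' deposited table. Sycp3 shares 52.2% of its exon bases with Chpt1 on the opposite strand, and the kit does not mark strand, so its level is uncertain. The secretory cell marker Scgb1a1, which marks the airway lining that ciliated cells share, had means of 50719 in wild type and 51324 in knockout (adjusted p = 0.997).

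Several members carry in their promoters the core of the X-box, the element that RFX factors such as Rfx3 bind. RefSeq promoters (build GRCm38.p6, from 250 bases before to 50 bases after an annotated start) were found for 29 of the 36 members, in 32 windows. The X-box core GTTGCC, searched on both strands, lay in 17 of those 32 windows, belonging to 16 genes. That is 53.1% of the members' windows, against 12.5% of all 32851 windows of the same length. The median GC content was 54.7% in the members' windows and 52.7% in all. A longer form, GTTNCC and GNAAC with any 3 bases between them, which can overlap the core, lay in 3 member windows (9.38%) and in 0.804% of all. The forkhead element GTAAACA, of the kind that Foxj1 binds, lay in the windows of Ak7 and Sntn (6.25% of the members' windows, 3.65% of all). Matches are a description of letters and not evidence of binding. The 3 windows with the longer form are shown, and that of Mcidas, the regulator with the lowest ratio. The window of Ccno, another regulator, also held the core and is not shown. No link between the matches and the ratios or spread of these genes was tested. Capitals mark the core and the longer form.
Tekt4, chr17:25471340-25471639, plus strand: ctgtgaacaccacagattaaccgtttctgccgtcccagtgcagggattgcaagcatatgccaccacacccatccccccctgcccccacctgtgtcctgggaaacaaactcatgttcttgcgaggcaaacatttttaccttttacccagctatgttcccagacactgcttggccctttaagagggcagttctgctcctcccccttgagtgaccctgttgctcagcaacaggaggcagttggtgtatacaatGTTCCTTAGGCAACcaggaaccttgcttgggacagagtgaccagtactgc
Hydin, chr8:110266727-110267026, plus strand: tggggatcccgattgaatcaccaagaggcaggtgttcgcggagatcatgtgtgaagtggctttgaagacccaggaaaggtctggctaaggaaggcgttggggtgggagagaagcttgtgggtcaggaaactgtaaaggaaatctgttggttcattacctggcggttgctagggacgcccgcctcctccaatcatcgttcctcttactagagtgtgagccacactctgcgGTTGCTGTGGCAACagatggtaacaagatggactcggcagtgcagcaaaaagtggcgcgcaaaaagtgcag
Spag16, chr1:69826720-69827019, plus strand: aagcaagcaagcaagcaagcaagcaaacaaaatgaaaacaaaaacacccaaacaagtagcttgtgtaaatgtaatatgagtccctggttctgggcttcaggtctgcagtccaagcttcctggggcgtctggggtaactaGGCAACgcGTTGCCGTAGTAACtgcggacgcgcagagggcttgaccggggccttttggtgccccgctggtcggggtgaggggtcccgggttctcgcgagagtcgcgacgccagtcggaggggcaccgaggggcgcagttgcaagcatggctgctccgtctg
Mcidas, chr13:112993618-112993917, plus strand: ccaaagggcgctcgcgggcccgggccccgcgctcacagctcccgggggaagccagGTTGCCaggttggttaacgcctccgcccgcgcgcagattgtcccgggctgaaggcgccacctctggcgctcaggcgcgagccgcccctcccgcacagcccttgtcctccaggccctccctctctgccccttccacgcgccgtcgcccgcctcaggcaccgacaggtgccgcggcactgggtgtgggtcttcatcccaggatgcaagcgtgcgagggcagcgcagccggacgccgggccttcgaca
In Tekt4, whose RefSeq start here lies within the span that GENCODE gives the gene, the longer form began at base 1 after the start, in Hydin 21 bases before it and in Spag16 103 bases before it. The Mcidas window held the core alone, 195 bases before the start.

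Knockout and wild type lungs did not differ at any member by the authors' test. Of the 36 motile cilium genes 0 were called, against a background of 1.09% of all rows tested (184 of 16902), made up of 0.592% higher and 0.497% lower in knockout. With Benjamini-Hochberg adjustment over all p-values 0 members and 0.820% of all rows passed. The lowest adjusted p among the members was 0.475. At an unadjusted p under 0.05 the authors' DESeq2 comparison had 1 member, Tekt4, with a lower knockout mean, against 8.47% of all rows, 4.43% higher and 4.04% lower in knockout. The median ratio of the group means over the members was 1.04-fold (log2 ratio 0.06), and 25 of the 36 lay above their wild type mean. Over all tested rows the median was 0.999-fold, with 49.4% above. The summed level of the 36 genes was 62612 normalized counts in wild type and 63442 in knockout.

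The range of ratios that the data allow was read from intervals. An approximate 95% interval for each ratio was computed from the log2 ratio of the means and the deposited Wald statistic. For 34 of the 36 members the whole interval lay within 1.5-fold of equality in both directions. The exceptions were Mcidas and Dnah12, the members with the fewest reads. A p that misses the threshold does not show that levels were the same.

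**Figure D1:**
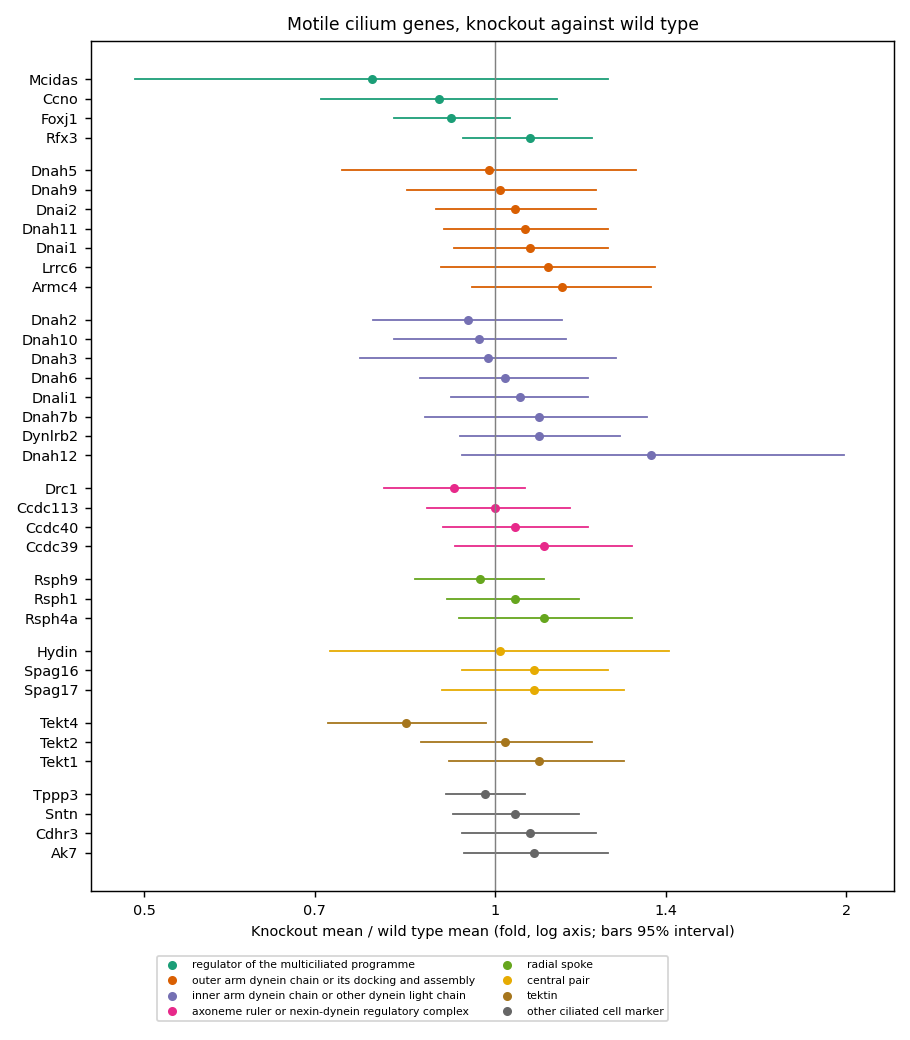
Ratio of the knockout mean to the wild type mean (fold, log axis) for the 36 motile cilium genes, grouped by role, with approximate 95% intervals as bars. Every interval but that of Tekt4 (0.718 to 0.981) crosses 1, and the intervals of Mcidas and Dnah12 are the only ones that leave the range of 1.5-fold.

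Among the regulators, Foxj1, the forkhead factor that turns on motile cilium genes (kgCluster5302, chromosome 11 from 116330704 to 116335399 in mm10, minus strand), averaged 5059 in wild type and 4636 in knockout in the authors' deposited table. That is a ratio of 0.916 with an interval of 0.818 to 1.03 (adjusted p = 0.800). Rfx3, the X-box factor, had means of 1021 and 1090 there (ratio 1.07, adjusted p = 0.942). Mcidas, which forms the complex that starts the multiciliated programme, and Ccno, a cyclin-like protein needed to multiply centrioles, stand side by side on chromosome 13. Ccno runs from 112987802 to 112990777 and Mcidas from 112993845 to 113000394, both on the plus strand in mm10. Ccno averaged 163 in wild type and 146 in knockout in the authors' deposited table, a ratio of 0.894 (0.709 to 1.13, adjusted p = 0.949). Foxj1, Mcidas and Ccno thus lay below their wild type means and Rfx3 above, and none passed the test.

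Mcidas is the member whose values could be obtained for every library. A group mean is made of 3 whole read numbers, each scaled by its library, and for each Mcidas mean a single combination of reads fitted. In wild type the libraries, given here the letters A, B and C for lack of replicate numbers, had 39.4, 48.7 and 40.6 normalized counts of Mcidas (42.9 ± 5.06, SD, n = 3). In knockout, where the letters do not pair with those of wild type, they had 30.2, 45.1 and 25.6 (33.6 ± 10.2, SD, n = 3). The groups overlapped: knockout library B was above wild type libraries A and C, and the other knockout libraries were below all 3 wild type ones. The ratio of the means was 0.784 (0.491 to 1.25, adjusted p = 0.939 in the authors' deposited table). The log2 ratio of -0.35 became -0.62 without knockout library B and -0.19 without knockout library C.

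Dnah12, an inner arm dynein heavy chain, had the highest ratio of the members. Its wild type libraries A, B and C had 66.0, 70.5 and 61.4 normalized counts (66.0 ± 4.58, SD, n = 3). The knockout mean, 90.0 in the authors' deposited table, fitted 3 different combinations of reads, so values of single knockout libraries are not given. The ratio was 1.36, with an interval of 0.937 to 1.99 and an adjusted p of 0.746.

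**Figure D2:**
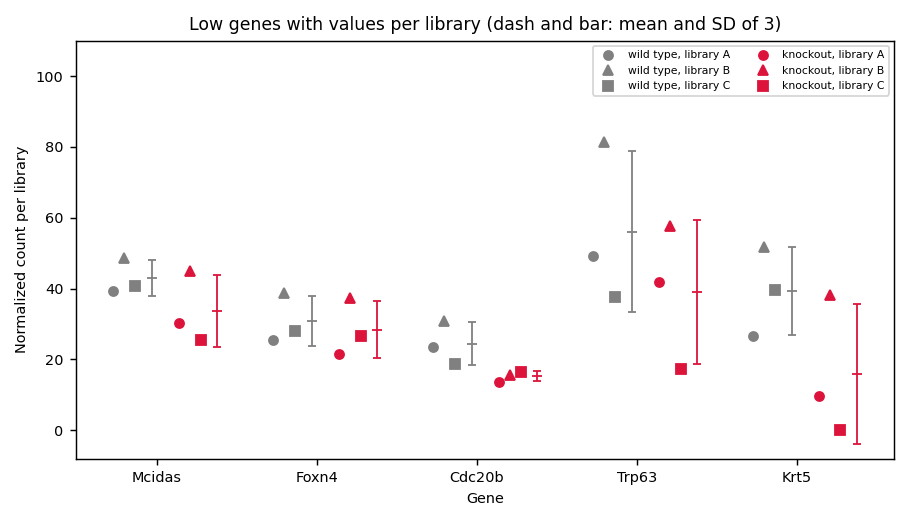
Normalized counts per library (y axis) of 5 low genes whose group means fit a single combination of reads, wild type in grey and knockout in red, with circles for library A, triangles for B and squares for C; the dash and bar beside them are the mean and SD of 3. Library B is the highest of its group for Mcidas, Foxn4, Trp63 and Krt5, and the Mcidas values of the genotypes overlap.

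Outer arm dyneins supply most of the force of the beat. Dnah5, their main heavy chain, averaged 4260 in wild type and 4206 in knockout in the authors' deposited table (ratio 0.987, interval 0.739 to 1.32). Dnah9, the heavy chain paired with it along the outer part of the cilium, had 2244 and 2268 (ratio 1.01), and Dnah11, the one nearer the base, 1474 and 1565 (ratio 1.06). The intermediate chains Dnai1 and Dnai2 had ratios of 1.07 and 1.04. Armc4, part of the complex that docks the arms, had means of 485 and 552 (ratio 1.14, 0.955 to 1.36, adjusted p = 0.824 in the authors' deposited table). Lrrc6, which helps to assemble the arms in the cytoplasm, had 390 and 433 (ratio 1.11). Of these 7 genes 0 were called, and all except Dnah5 lay above their wild type means, by at most 14.0%.

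Inner arm dyneins shape the bend of the cilium, and here their heavy chains lay on both sides of equality. Dnah2 averaged 957 in wild type and 906 in knockout in the authors' deposited table (ratio 0.947), Dnah10 had 1763 and 1707 (ratio 0.968) and Dnah6 had 3728 and 3798 (ratio 1.02). Dnah7b had 574 and 624 (ratio 1.09) and Dnah3 202 and 200 (ratio 0.986). Dnah7b has near copies in Dnah7a and Dnah7c, so reads may be shared among them, and its value is uncertain for that reason. The light chains Dnali1 and Dynlrb2 had ratios of 1.05 and 1.09. Over these 8 genes the adjusted p-values in the authors' deposited table were at least 0.746.

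The remaining axoneme genes were as close to wild type. Ccdc39 and Ccdc40 form the ruler that sets the spacing along the doublets, and had ratios of 1.10 and 1.04. Drc1, a nexin-dynein regulatory complex subunit, averaged 1189 in wild type and 1095 in knockout in the authors' deposited table (ratio 0.921, 0.802 to 1.06), and Ccdc113, a protein of cilia and centriolar satellites, 901 and 905. The radial spoke genes Rsph1, Rsph4a and Rsph9 had ratios of 1.04, 1.10 and 0.970. Among the central pair genes Spag16 and Spag17 each had a ratio of 1.08, and Hydin, a giant protein of the central pair projections, 1.01 (2156 and 2175 normalized counts). None of these genes was called.

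Tektins are filament proteins inside the doublets, and the family held the member with the lowest p. Tekt4 (kgCluster11740, chromosome 17 from 25454615 to 25476602 in mm10, plus strand) averaged 804 in wild type and 675 in knockout in the authors' deposited table. The ratio was 0.839 with an interval of 0.718 to 0.981. In the authors' DESeq2 comparison the fold change after shrinkage was -0.17 ± 0.0786 (SE) on the log2 scale, at an unadjusted p of 0.0275 and an adjusted p of 0.475. Tekt4 did not pass the test, and an unadjusted p under 0.05 with a lower knockout mean was found for 4.04% of all rows. Tekt1 and Tekt2 lay on the other side of equality, with ratios of 1.09 and 1.02.

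The 4 other markers of ciliated cells lay within 8.38% of their wild type means. Tppp3, a microtubule-bundling protein, had 12894 normalized counts in wild type and 12641 in knockout in the authors' deposited table, a ratio of 0.980 with an interval of 0.908 to 1.06. Cdhr3, a cadherin of the ciliated cell surface, had 3086 and 3296 (ratio 1.07, 0.937 to 1.22). Ak7, an adenylate kinase of the axoneme, had 2139 and 2318 (ratio 1.08), and Sntn, a protein of the ciliary tip, 1004 and 1046 (ratio 1.04). Adjusted p-values for these genes were at least 0.919 in the authors' deposited table.

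Levels of different members were compared per kilobase of exon, with exon lengths from GENCODE M21 on mm10. The wild type levels ran from 5.49 normalized counts per kilobase for Dnah12 to 6977 for Tppp3, with a median of 252. After Tppp3 came the light chain Dynlrb2 at 2059, Foxj1 at 1929 and the spoke gene Rsph1 at 1120. A transcription factor thus stood among the most abundant transcripts of the set per length, while Rfx3 had 92.6, Ccno 64.0 and Mcidas 18.0. Of the heavy chains Dnah6 and Dnah5 were highest at 281 and 272, followed by Dnah9 at 141, Dnah10 at 110 and Dnah11 at 102. Dnah2, Dnah7b, Dnah3 and Dnah12 followed at 63.9, 28.7, 14.2 and 5.49. The intermediate chains Dnai2 and Dnai1, at 242 and 188, lay between Dnah5 and Dnah9. The knockout kept nearly this order: 20 of the 36 genes held the same rank and none moved by more than 2 places. Neighbours such as Dnah6 and Dnah5 differed by less than the spread between libraries of Dnah5, a CV of 18.0%. Gene models of the authors' clusters may differ from GENCODE, which would change a level per length but not a ratio between genotypes. The order also depends on the length used. With the longest transcript in place of all exon bases, Dnai2 had 384 in wild type, above Dnah6 at 295 and Dnah5 at 272.

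**Figure D3:**
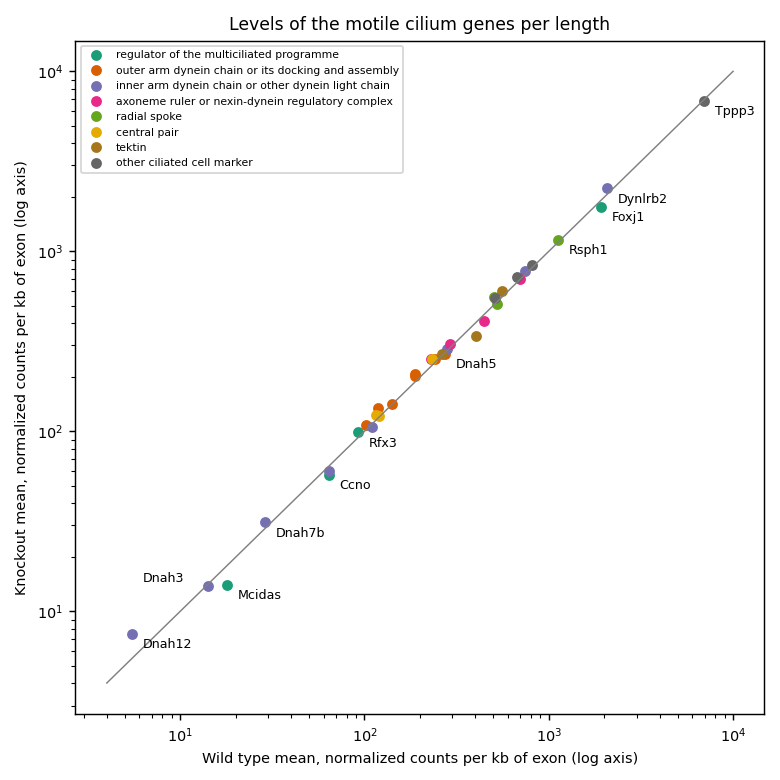
Mean level of each motile cilium gene in normalized counts per kilobase of exon, wild type (x axis) against knockout (y axis), both log axes, coloured by role; the line marks equal levels. The 36 genes span from Dnah12 (5.49 in wild type) to Tppp3 (6977) and lie close to the line, with Mcidas just under it and Dnah12 just over it.

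Motile cilium genes varied more between libraries of the same genotype than most genes of their level. An approximate coefficient of variation (CV) between libraries was derived from the same standard errors. It includes the authors' pulling of each gene's dispersion towards the general trend. Its median was 9.68% over the members and 7.17% over all tested rows. At a mean of at least 500 normalized counts it was 9.37% over 31 members and 5.87% over 10705 rows. Without that limit the median was 9.50% over 146 other motile cilium genes and 9.59% over 17 airway secretory markers, both described below. It was 7.05% over 38 intraflagellar transport and BBSome genes. With all rows sorted by mean and split into bins of equal size, 34 of the 36 members lay above the median CV of their bin, Mcidas and Tppp3 being the exceptions. Of the members, 13 lay above the 95th percentile of their bin.

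The heavy chains and other giant genes held most of these 13. They were Dnah2, Dnah5, Dnah6, Dnah7b, Dnah9, Dnah10 and Dnah11, Hydin, Spag17, Ccdc39, Rsph4a, Tekt1 and Ak7. Hydin had a CV of 20.8% and Dnah5 of 18.0%. Foxj1, whose mean was higher than that of Dnah5, had 6.97%, and Tppp3 had 4.68%. Across the 36 genes the CV and the exon length had a Spearman correlation of 0.55, and the log2 ratio and the exon length of 0.05. All points come from the same 6 libraries, so these correlations are descriptions only. Hydin and Dnah5 therefore had wide intervals despite many reads, 0.722 to 1.41 and 0.739 to 1.32.

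Markers of the other cells of the airway lining were described in the same libraries. Several secretory genes of the airways varied more than any member: the CV was 61.6% for Bpifa1, 64.1% for Bpifb1, 75.9% for Reg3g, 47.7% for Scgb3a1 and 32.0% for the mucin Muc5b. Bpifa1 averaged 16934 in wild type and 7402 in knockout in the authors' deposited table, with an adjusted p of 0.739. The club cell markers Scgb1a1, Cyp2f2 and Scgb3a2 had CVs between 4.66% and 6.07%. Scgb3a2 had means of 18481 and 16756 (unadjusted p = 0.0497, adjusted p = 0.587). Of 17 secretory markers 0 were called in the authors' deposited table, against 1.09% of all rows. Of the 17, 8 lay above their wild type means, and the summed levels were 319002 and 311208.

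**Figure D4:**
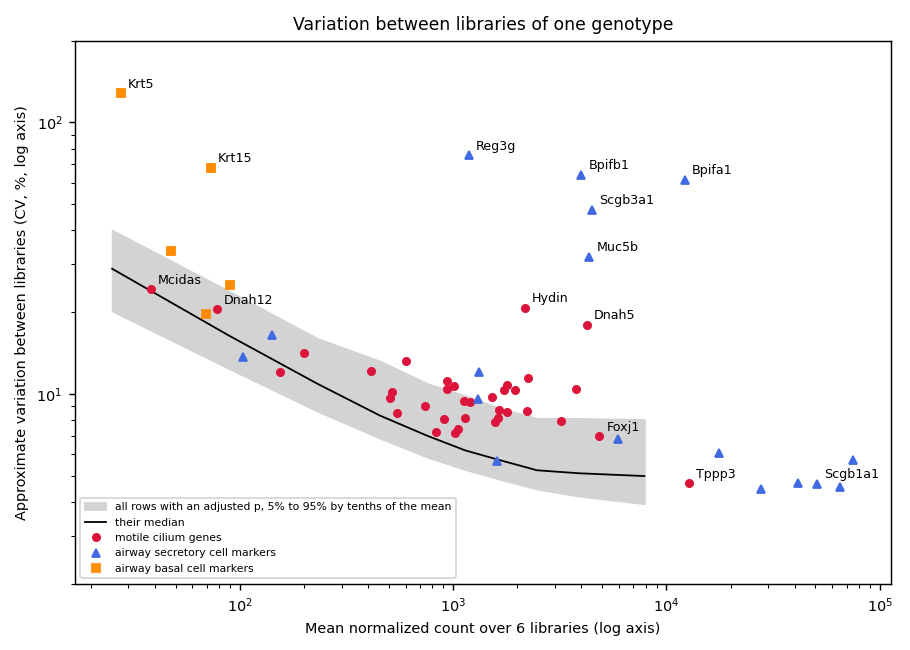
Approximate CV between libraries of 1 genotype (%, log axis) against the mean normalized count over 6 libraries (log axis). The grey band spans the 5th to 95th percentile of all rows in bins of the mean and the black line their median; motile cilium genes are red circles, secretory markers blue triangles and basal markers orange squares. Most red circles lie above the line, Hydin and Dnah5 at 20.8% and 18.0%, and Bpifa1, Bpifb1 and Reg3g lie above 60%.

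The tested markers of basal cells, the progenitors of the large airways, had lower knockout means without passing the test. All 5 tested basal markers lay below wild type (median log2 ratio -0.80), 0 of the 5 were called in the authors' deposited table, and the lowest adjusted p was 0.200, for Ngfr. Krt5, the keratin that defines these cells, had 26.6, 51.7 and 39.5 normalized counts in wild type libraries A, B and C and 9.75, 38.2 and 0 in the knockout ones. Trp63, their master regulator, had 49.2, 81.5 and 37.5 in wild type and 41.9, 57.8 and 17.4 in knockout. In knockout libraries A, B and C, Ngfr had 63.4, 57.8 and 33.8 normalized counts and Dlk2 had 2.93, 6.86 and 1.02. Knockout library C was the lowest of its group for Mcidas and for the basal markers Krt5, Trp63, Ngfr and Dlk2. It was not the lowest for the basal keratin Krt14 (2.93, 15.7 and 6.14 in A, B and C) or for Foxn4 (21.5, 37.2 and 26.6), and it was the highest for Cdc20b (13.7, 15.7 and 16.4). The part of basal cell markers in the Mcidas values was not tested. Krt14 went the other way, averaging 1.01 in wild type and 8.25 in knockout in the authors' deposited table. Its unadjusted p in their DESeq2 comparison was 0.0232, without an adjusted p, and Dlk2 had no adjusted p either. Of the 5 tested markers 2 had an unadjusted p under 0.05 with a lower knockout mean, against 4.04% of all rows.

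The wider motile cilium pathway was described with 5 more lists, 157 genes outside the members, of which 149 were found and 146 tested. Of these, 0 were called, against 1.09% of all rows, and 4 (2.74%) had an unadjusted p under 0.05, against 8.47% of all rows. These 4 were higher in knockout, against 4.43% of all rows higher at that p. Their median log2 ratio was 0.04, with 86 above and 60 below wild type. For 134 of the 146 the interval lay within 1.5-fold of equality. Rsph3a, a radial spoke gene, had the lowest p: 1164 and 1453 normalized counts, a ratio of 1.25 (1.10 to 1.42) and an adjusted p of 0.0532 in the authors' deposited table. Rsph3b, its near copy, had a ratio of 1.08 (adjusted p = 0.832), and reads may be shared between them, so both values are uncertain. Fgfr1op, a centriole protein, had a ratio of 1.19 (adjusted p = 0.0799), Lrriq1, a leucine-rich repeat protein of ciliated cells, 1.36 (adjusted p = 0.229) and Wdr63, an inner arm dynein intermediate chain, 1.17 (adjusted p = 0.475 in the authors' deposited table). Rsph3a (7945614 to 7979824) and Fgfr1op (8165501 to 8196804) lie close together on chromosome 17 in mm10. Rsph3b (6904413 to 6948682) and Dynlt1b (6430112 to 6436296), a gene with a lower knockout mean described below, are on the same chromosome. The part of this shared location in the ratios was not tested.

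Within the list of differentiation and centriole genes 0 of 21 tested genes were called, with 11 above and 10 below wild type and a median log2 ratio of 0.00. Gmnc, which acts upstream of Mcidas, averaged 300 in wild type and 326 in knockout in the authors' deposited table (ratio 1.09), Myb 1057 and 985 (ratio 0.932) and Trp73, which directly activates Foxj1, 636 and 554 (ratio 0.871, adjusted p = 0.745). Rfx2, a paralogue of Rfx3, had a ratio of 0.892, and Deup1, a scaffold of centriole amplification, 0.967. Rfx4, a low gene without an adjusted p, had 1.97, 3.97 and 1.04 normalized counts in wild type libraries. In knockout libraries it had 5.85, 7.84 and 5.12. Cdc20b stands next to Mcidas on chromosome 13 (113035111 to 113091195 in mm10). It had 23.6, 30.8 and 18.7 normalized counts in wild type libraries and 13.7, 15.7 and 16.4 in knockout ones. The ratio of 0.625 had an interval of 0.338 to 1.16 and an adjusted p of 0.802 in the authors' deposited table. The neighbours Ccno, Mcidas and Cdc20b thus all had lower knockout means, and none was called.

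Tubb4b, the tubulin of motile axonemes, averaged 10192 in wild type and 10365 in knockout in the authors' deposited table, a ratio of 1.02 with an interval of 0.956 to 1.08. In the list of other dynein chains 0 of 15 tested genes were called, Dnah1 having a ratio of 0.995 and Dnah7a of 1.14. The arm assembly factors had 0 of 15 called (median log2 ratio -0.01), the other nexin, spoke, central pair and tektin genes 0 of 23 (median 0.06) and the remaining motile cilium genes 0 of 72 (median 0.06). Dynlt1b, a light chain of a multicopy family and therefore uncertain, had the lowest ratio of the dynein list, 0.637 (0.395 to 1.03, adjusted p = 0.641).

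Intraflagellar transport carries parts into cilia of every kind, motile or not. Of 38 tested transport and BBSome genes 0 were called in the authors' deposited table, 28 lay above wild type, and the median log2 ratio was 0.04. Ift57, a subunit of the outward transport complex, had 1206 and 1474 normalized counts, a ratio of 1.22 (1.09 to 1.37, adjusted p = 0.0525). Dync2h1, the motor that returns cargo to the base, had 1672 and 2005 (ratio 1.20, unadjusted p = 0.0407, adjusted p = 0.547 in the authors' deposited table). Kif17, a kinesin, had 39.4, 33.8 and 29.1 normalized counts in wild type libraries and 27.3, 22.5 and 20.5 in knockout ones (ratio 0.687, adjusted p = 0.822).

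**Figure D5:**
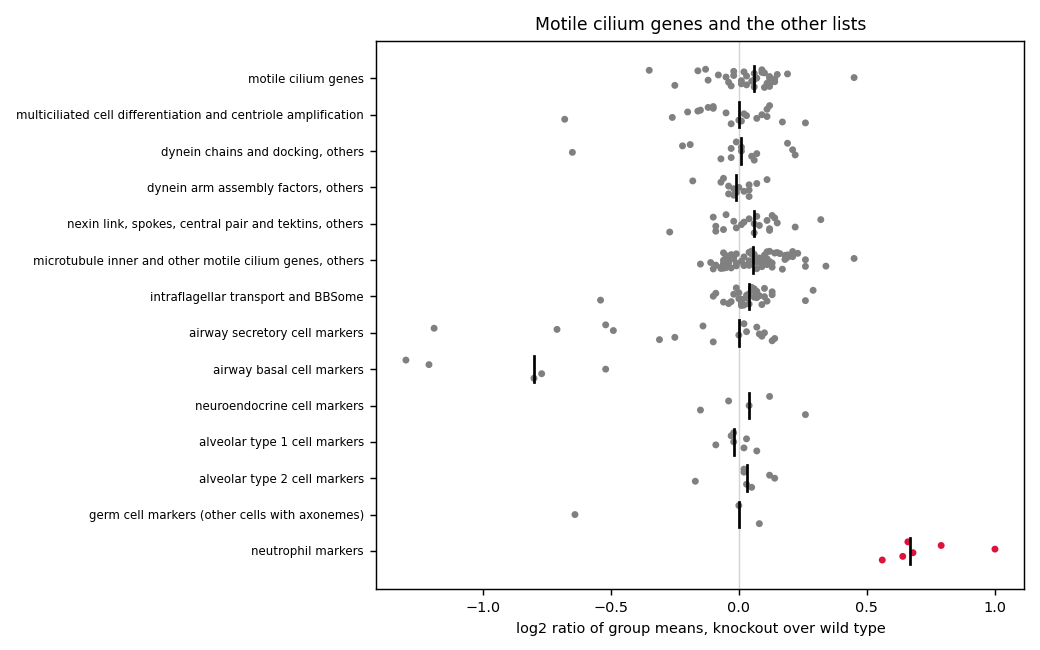
log2 ratio of the group means, knockout over wild type (x axis), of every tested gene of the motile cilium genes and of the 13 other lists (rows), with black bars at the medians; red points are called genes (adjusted p under 0.05) and grey points all others. The motile cilium genes centre on 0.06 without a called gene, and the neutrophil markers, with a median of 0.67, are the list with red points.

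Markers of other cell types of the lung were described beside the motile cilium genes. Their lists were written with earlier results of these data known, so the counts do not measure what these libraries could detect. Of 6 tested neutrophil markers 6 were called higher in knockout in the authors' deposited table, with a median log2 ratio of 0.67, Cxcr2 having 365 and 732 normalized counts. Against 1.09% of all rows called, alveolar type 1 and type 2 markers had 0 of 7 called each (medians -0.02 and 0.03). Neuroendocrine markers had 0 of 5 (median 0.04) and germ cell markers 0 of 3 (median 0.00). These tested germ cell genes were Odf2, Sycp3 and Ddx4.

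Some members share exon sequence with genes of the opposite strand in GENCODE M21, and the kit named in the labels does not mark strand. The largest overlaps were 20.8% of the exon bases of Tekt2 (with Gm12945), 16.9% of Ccdc39 (with Ttc14), 10.5% of Dnah3 (with Lyrm1) and 9.66% of Spag17 (with Wdr3). Reads of these pairs cannot be told apart there, so their levels are uncertain. Tekt4, Foxj1, Mcidas, Ccno, Dnah5 and Tppp3 had no such overlap.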

How the data were processed

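RNA from 6 whole lungs was made into libraries from 500 ng of total RNA (TruSeq RNA v2 chemistry) and read as 50 bp paired ends, per the labels' protocols, which give a mean RNA integrity number of 9.45. For what the authors did, the submitters' processing notes name STAR 2.5.1b, Bowtie2, bedtools, SAMtools and mm10, with no role or order, and the authors used DESeq2. How reads were counted, and whether by strand, is not given in the sources. Per the file headers, the authors deposited for each gene cluster the mean over all libraries and over each genotype, a signal in normalized counts. The authors also deposited a shrunken log2 fold change and its standard error, the Wald statistic (a score), and a p-value, raw and adjusted, from their DESeq2 comparison. The table holds no per-library counts, so no model was refitted.

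Ratios are knockout over wild type means. A symbol with several rows was read from its most abundant one. The log2 ratio divided by the Wald statistic was taken as its standard error before shrinkage. With 1 fitted prior this gave back the deposited standard error within 1% for 97.8% of 10425 rows whose Wald statistic was not near 0. For members the check ran the other way, from the deposited standard error to the value before shrinkage, which can have more than 1 solution. The closest solution lay within 3.09% of the value used for every member. The CV assumes negative binomial counts with 3 libraries a group. Reads per library were derived as whole numbers from group means up to 40 normalized counts, where all 4901 wild type and 4877 knockout means had a single solution within rounding, and were also sought for named genes with higher means. Both derivations were tested on simulated data: among 2831 simulated wild type and 2809 simulated knockout means with a single solution, 100% gave the simulated reads. The simulated means reached at most 40 normalized counts. Higher means were not covered, such as the wild type means of Mcidas (42.9), Trp63 (56.0) and Dnah12 (66.0) and the knockout mean of Ngfr (51.7). Exon lengths and positions came from GENCODE M21, promoters and older symbols from RefSeq. Of 256 entries in other lists 242 were found. Every member may be named; members with p under 0.05, the 3 highest and lowest ratios and levels, and list genes with low p or that define a cell type get values, and other list genes named for their role were chosen after their values were seen. The members, lists and rules were chosen with earlier results of these data known. Scripts ran in Python 3.11.15 with scipy 1.17.1.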

Additional observations from a re-analysis of the deposited data

How the results depend on the processing

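The count of 0 called motile cilium genes was also 0 with Benjamini-Hochberg adjustment over all 20477 p-values, and became 1 (Tekt4) at an unadjusted p under 0.05. That rule gave 1 gene each for the differentiation and centriole, the other dynein, the nexin and spoke, the remaining motile cilium and the secretory lists, and 2 each for the transport, basal and alveolar type 2 lists, in place of 0. The median log2 ratio over the members, 0.06, lay between 0.04 and 0.07 under the authors' shrunken fold change, a pseudocount of 1, a mean of at least 50, equal sums of the groups and summed rows; all 36 had an adjusted p, so that filter changed nothing. Equal sums moved every ratio by 0.01 on the log2 scale. Leaving out 1 library at a time moved the log2 ratio of Mcidas between -0.62 and -0.19, and leaving out 1 wild type library moved that of Dnah12 between 0.40 and 0.50. Knockout values per library were not derived for Dnah12, and neither group's for the other 34 members, so those alternatives, and a limma fit with or without each library, were not run. With the longest transcript as length, a choice made after seeing the data, Tppp3 had 9236 normalized counts per kilobase in wild type in place of 6977. Dnai2 then had 384 in place of 242, which changed its place among the members. No paired analysis was possible because the deposited columns are means of a genotype and carry no replicate numbers.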
